A study of Homo sapiens with 6 samples.

Results

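The data described here are the mRNA levels of 563 genes of chromosome 15 in HEK293 cells, which derive from human embryonic kidney and carry adenovirus sequences. The genes were chosen by position and depth from 60609 gene identifiers: those placed on chromosome 15 of hg38 by GENCODE release 29 with a mean of 10 or more estimated reads over the 6 libraries. They were divided by their start coordinate at a border between the starts of ANXA2 (60347134) and ICE2 (60419609), with 252 genes below and 311 beyond. The border was set from the comparison of knockout with wild type itself, so the differences between the 2 stretches in that comparison are given as a description and support nothing by themselves. The 3 control libraries came from wild-type HEK293 cells and the 3 others from HEK293 cells labelled STAT5b knock-out, made with CRISPR/Cas9. Clones with both STAT5B alleles mutated were picked by sequencing and Western blot, per the labels, and the same text speaks of GS knockout clones without explaining the name. How many clones gave the RNA is not stated, so a difference between clones and the loss of STAT5B cannot be told apart. Nor do the labels say whether the 3 libraries per group stem from separate cultures, and p-values then reflect the spread among these 6 samples alone, which may be technical. Sample names of both groups hold the word Sham, which the labels do not explain.

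Chromosome 15 is acrocentric, so its genes lie on the long arm. Its proximal part holds the imprinted Prader-Willi and Angelman region, and the part past the border holds housekeeping genes such as the pyruvate kinase gene PKM and ribosomal protein genes. Neighbouring genes share DNA copy number and chromatin surroundings, neither of which was measured in these libraries. STAT5B, the targeted gene, encodes a transcription factor of cytokine and growth hormone signalling that binds the palindrome TTCNNNGAA.

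That palindrome was searched in the RefSeq promoter windows (GRCh38.p14) of the chromosome 15 genes, 250 bases before to 50 bases after the gene start. It reads the same on both strands. The windows of 4 genes are printed because they show the motif in genes on either side of the border with different responses: TRPM7, an ion channel kinase gene that fell, ICE2, the first gene past the border, and the ribosomal protein gene RPL4 and BTBD1, a gene for a BTB-domain protein, which both rose. The edgeR call of TRPM7 (log2 fold change −0.15, adjusted p = 0.0369) ended when any 1 library other than knockout replicate 3 was left out (adjusted p from 0.0503 to 0.162). It also ended with offsets for effective length, with offsets for length and GC content and on log2(TPM + 1). All 4 genes lie on the minus strand, at chr15:50686748-50687047, chr15:60479093-60479392, chr15:66504806-66505105 and chr15:83067203-83067502 in that order, and capitals mark the match.
TRPM7: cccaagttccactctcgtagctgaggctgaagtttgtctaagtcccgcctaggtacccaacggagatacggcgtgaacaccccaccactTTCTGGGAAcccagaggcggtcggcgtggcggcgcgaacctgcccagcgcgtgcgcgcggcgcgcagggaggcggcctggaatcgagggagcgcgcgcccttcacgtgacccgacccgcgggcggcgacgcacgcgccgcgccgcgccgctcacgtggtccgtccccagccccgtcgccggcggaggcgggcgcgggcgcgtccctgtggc
ICE2: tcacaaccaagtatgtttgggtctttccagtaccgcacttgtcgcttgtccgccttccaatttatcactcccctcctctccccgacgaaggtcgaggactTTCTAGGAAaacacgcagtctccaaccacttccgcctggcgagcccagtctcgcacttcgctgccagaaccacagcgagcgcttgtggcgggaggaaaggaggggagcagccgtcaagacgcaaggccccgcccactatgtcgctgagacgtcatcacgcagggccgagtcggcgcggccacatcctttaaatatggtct
RPL4: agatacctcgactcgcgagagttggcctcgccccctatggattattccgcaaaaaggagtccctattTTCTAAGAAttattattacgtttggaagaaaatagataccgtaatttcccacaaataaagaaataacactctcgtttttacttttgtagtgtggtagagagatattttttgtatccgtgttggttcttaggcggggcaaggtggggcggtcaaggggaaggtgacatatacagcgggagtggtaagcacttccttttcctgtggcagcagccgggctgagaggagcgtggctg
BTBD1: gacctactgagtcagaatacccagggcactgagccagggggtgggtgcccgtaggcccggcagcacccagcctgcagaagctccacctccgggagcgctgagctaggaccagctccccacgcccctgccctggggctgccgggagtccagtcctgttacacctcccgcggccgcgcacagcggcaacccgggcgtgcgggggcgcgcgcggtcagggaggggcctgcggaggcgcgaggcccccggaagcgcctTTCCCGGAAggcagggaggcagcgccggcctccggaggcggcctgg
A window was found for 236 tested genes beyond the border, and 15 of them (6.36%) held a match. Below the border it was 16 of 180 windows (8.89%). A match was held by 7.88% of all 27305 windows and by 6.02% of the 11271 windows of tested genes. Among the genes beyond the border that rose, 6 of 75 windows (8%) held a match. Below the border it was 2 of 27 windows of genes that fell (7.41%) and 0 of 10 of genes that rose. The genes CARMAL, which rose, and ABHD2, which was not called, have the same window, so it counts as 2 of the 15. Below the border the windows of LRRC57 and HAUS2 overlap on opposite strands and hold the same site, which counts as 2 of the 16. These are matches of letters, not binding sites.

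The libraries held 17494958 to 21099813 estimated counts. STAT5B mRNA was present in every knockout library, at 61.8 ± 1.30 CPM (the gene's count scaled to a common library size, after TMM scaling, and so comparable between libraries) against 68.0 ± 2.98 CPM in the wild type (SD, n = 3 each). The log2 fold change was −0.14 ± 0.047 (SE, edgeR adjusted p = 0.0468). The labels do not give the mutation, and reads summed over the gene do not show it, so these levels do not check the genotype. Of 7 kidney lineage markers 6 were above 1 CPM in both groups, as were 4 of 4 epithelial markers. None of 4 haematopoietic and 3 endothelial markers reached 1 CPM, with summed levels of at most 1.01 and 0.367 CPM in any library. The summed neuronal markers were lower in the knockout (456 to 481 CPM) than in the wild type (659 to 694 CPM), and the summed mesenchymal markers, of which 3 of 5 were above 1 CPM, were higher (695 to 722 against 661 to 677 CPM). In edgeR 1 neuronal marker was called higher and 1 lower, as in the mesenchymal list, so the sums do not stand for each marker. The part of either list in the chromosome 15 values was not tested. The labels name no batch or date.

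Beyond the border mRNA levels were higher in the knockout for most genes, by a small amount. Of 309 tested genes there, 87 rose and 5 fell at an edgeR adjusted p under 0.05, where 12.1% of all 15958 tested genes rose and 11.4% fell. The median log2 fold change was 0.13, a fold of 1.09, and 74.8% of the genes had a value above 0, against 51.3% of all tested genes, whose median was 0.0063. Below the border 13 of 249 tested genes rose and 33 fell, with a median of −0.040. These shares are those that placed the border, and nothing is read from them. The 3 knockout values all lay above the 3 wild-type values for 126 genes beyond the border and all below for 17, where the shares over all tested genes were 19.9% and 18.7%. Below the border these counts were 26 and 56.

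The shift was small for each gene. Beyond the border the quartiles of the log2 fold changes were −0.00027 and 0.26, and the genes that rose had a median of 0.25. Of those 87 genes 4 changed more than 1.5-fold. Protein-coding genes beyond the border had a median of 0.13 (245 genes, 83 rose and 4 fell), and the other gene types, mostly noncoding RNAs and pseudogenes, had 0.097 (64 genes, 4 rose and 1 fell). Genes on the plus strand had a median of 0.11 and those on the minus strand 0.14.

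**Figure D1:**
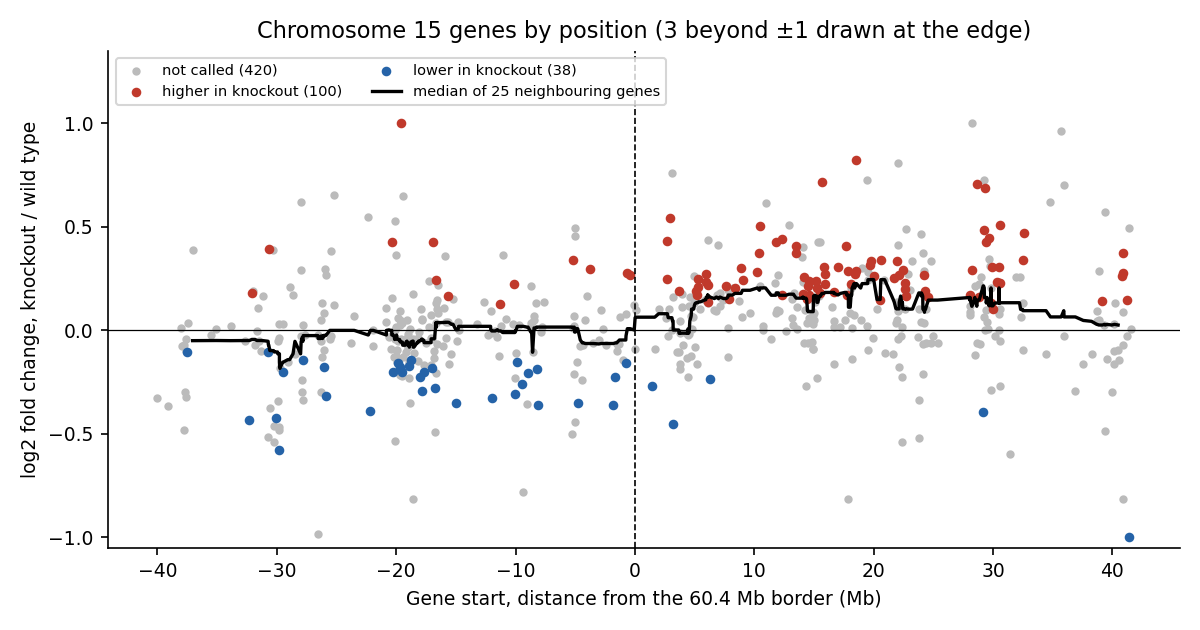
Log2 fold change of the 558 tested genes (knockout over wild type) against the distance of the gene start from the border, with the running median of 25 neighbouring genes as a black line. Of all points 100 are called higher and 38 lower. The line lies above 0 over most of the stretch past the first few Mb beyond the border and comes back towards 0 at the far end.

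Along the chromosome the higher values did not start at the border itself. In the window from 60 to 65 Mb the median log2 fold change was 0.0018, with 5 genes higher and 2 lower of 33. That window takes in FOXB1 and ANXA2 from below the border. For the 31 genes from the border to 65 Mb the median was −0.014, with 4 higher and 2 lower. The median was 0.15 from 65 to 70 Mb, where 13 of 41 genes rose and 87.8% lay above 0. The next windows of 5 Mb had medians of 0.17, 0.15, 0.14, 0.13 and 0.13 up to 95 Mb. From 95 to 100 Mb the median was 0.046 (16 genes), and beyond 100 Mb it was −0.0091 (18 genes). Counted over 65 to 95 Mb, limits chosen after the values were seen, 78 of 244 genes rose and 2 fell, with a median of 0.15.

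Moving the border by a few Mb changed the contrast of the 2 sides little. The median beyond minus the median below was 0.17 at the border used, 0.16 at 58 Mb, 0.17 at 63 Mb and 0.18 at 65 Mb. It was 0.14 at 50 Mb and 0.078 at 80 Mb. The highest run of 25 neighbouring genes lay between MORF4L1 and the unnamed gene ENSG00000237550, with a median of 0.25, 10 genes higher and 0 lower. Of 285 runs wholly beyond the border 273 had a median above 0, and of 225 runs wholly below it 53 did. Overlapping runs share genes and are not independent.

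The genes next to the border differed in direction. Just below it lie RPS3AP6, a processed pseudogene of a ribosomal protein gene, FOXB1, a forkhead transcription factor gene, and ANXA2, which encodes a calcium-dependent membrane-binding protein. Their log2 fold changes were 0.28, 0.27 and 0.12, with edgeR adjusted p of 0.00872, 0.0402 and 0.0763. Just beyond it ICE2, a subunit of the little elongation complex, had −0.088, the nuclear receptor RORA 0.097 and VPS13C, a lipid transfer protein, −0.27 (adjusted p 0.131, 0.565 and 0.0015). The FOXB1 call ended without wild-type replicate 1 or 2 or knockout replicate 1 or 3 (adjusted p from 0.0853 to 0.141) and by DESeq2 (0.111), which also ended that of RPS3AP6 (0.0543). By limma-voom and with effective-length offsets the FOXB1 call ended too, and with length and GC offsets that of RPS3AP6. On log2(TPM + 1) both calls ended. Reads of a pseudogene such as RPS3AP6 can come from its parent gene, so its level is uncertain. On the depth rule the genes just inside were FMN1, SNRPA1-DT and GOLGA8S, with means of 10.2, 10.3 and 10.4 reads, and just outside ENSG00000260361, SHC4 and HSPE1P3, with 9.83, 9.83 and 9.78. Of the 563 genes 5 were not tested because they did not pass the count filter.

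All libraries of a group shared the shift. For each library the median over genes of log2 CPM minus the gene's mean over the 6 libraries was taken. Beyond the border it was −0.071, −0.052 and −0.057 in wild-type and 0.060, 0.063 and 0.080 in knockout libraries. The 2 groups did not overlap, and each group's SD was about 0.01 (0.0096 and 0.011). Below the border the values were 0.0093, 0.034 and 0.029 in wild-type and −0.0077, −0.0035 and −0.034 in knockout libraries. The groups did not overlap there either. Nor did they over all tested genes, at −0.0015 to 0.0022 in wild-type and 0.0034 to 0.0068 in knockout libraries. Lack of overlap is thus not particular to the stretch beyond the border. From the border to 65 Mb the groups overlapped. The genes beyond the border took 1.67%, 1.68% and 1.69% of all counts in wild-type and 1.87%, 1.87% and 1.88% in knockout libraries, and without PKM, RPLP1 and RPL4 1.33% ± 0.0073 and 1.45% ± 0.0027 (SD, n = 3). The genes below took 0.953% ± 0.0038 and 0.920% ± 0.0052.

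**Figure D2:**
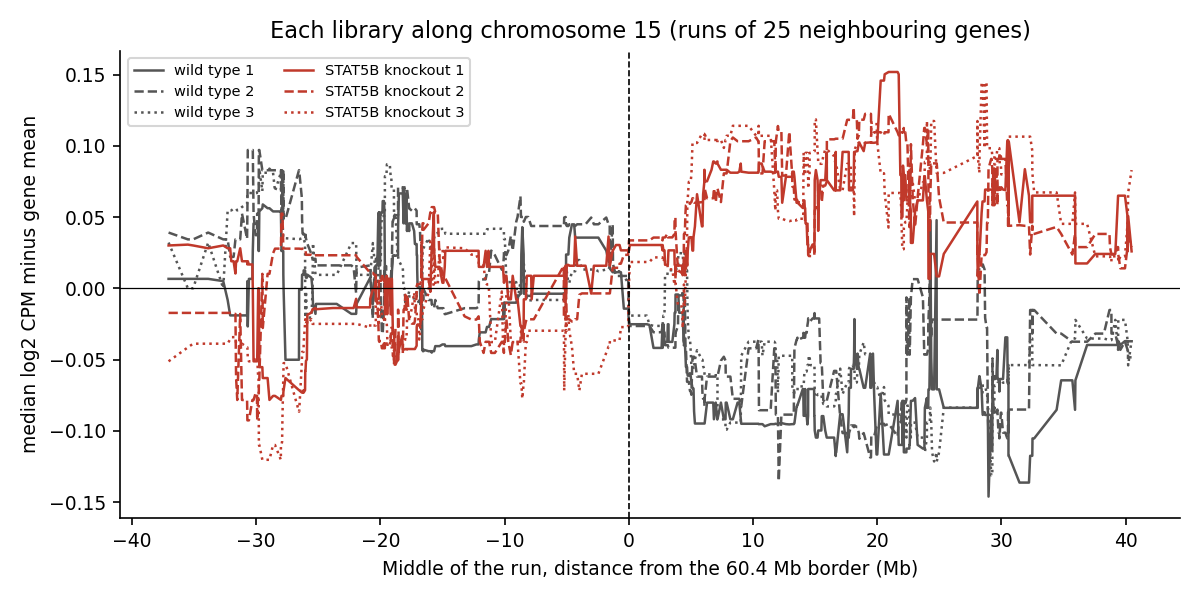
Median log2 CPM minus each gene's mean over the 6 libraries, in runs of 25 neighbouring genes, against distance from the border, with 1 line per library (grey, wild type; red, knockout). In most runs past the first few Mb beyond the border the 3 knockout lines lie above the 3 wild-type lines, and below the border the lines cross.

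By expression level the median was above 0 in each of 4 classes of mean TPM, cut so that all tested genes fill them evenly. From the lowest to the highest class the medians beyond the border were 0.10, 0.10, 0.10 and 0.16, where those of all tested genes were 0.00039, −0.0081, −0.014 and 0.032. Below the border they were −0.042, −0.050, −0.040 and 0.0078. The share of genes beyond the border that rose went from 4.71% (4 of 85) in the lowest class to 59.3% (48 of 81) in the highest, and that of all tested genes from 3.38% to 24.7%. The median standard error fell from 0.27 to 0.046 over the same classes, so a difference of this size was mostly not detectable at the depth of the lowest class. In the highest class 91.4% of the genes beyond the border had a value above 0 and 0 fell.

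**Figure D3:**
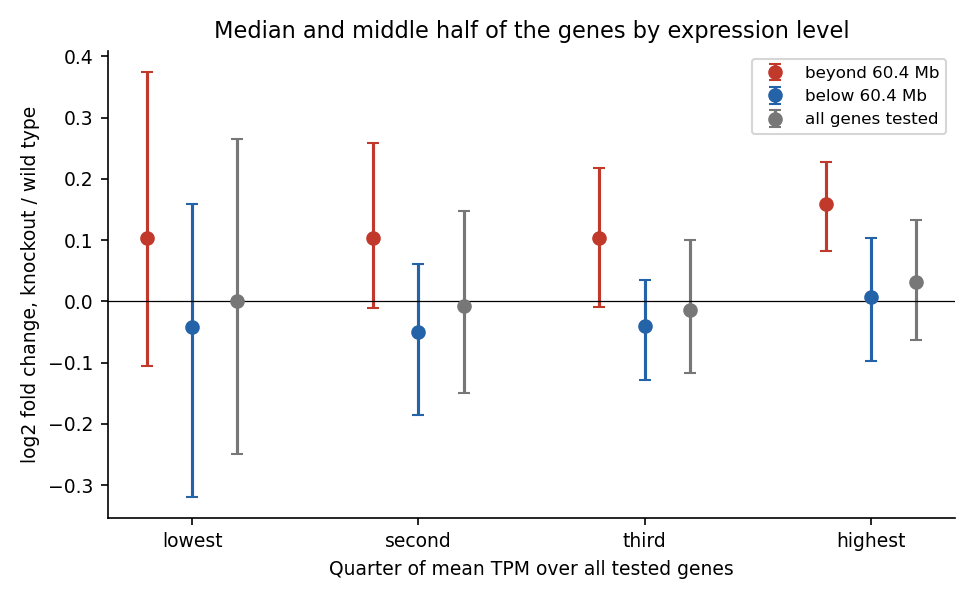
Median log2 fold change (points) and quartiles of the genes (bars) in 4 classes of mean TPM, for genes beyond the border (red), below it (blue) and all tested genes (grey). The red points lie between 0.10 and 0.16 and the bars narrow with level.

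Gene length and base composition moved with the fold changes over the whole table. In 3 even classes of length the medians of all tested genes were 0.060, 0.018 and −0.058 from short to long. Beyond the border they were 0.18, 0.15 and 0.058 and below it 0.052, −0.035 and −0.070. In 3 classes of transcript GC content the medians beyond the border were 0.15, 0.11 and 0.10, and those of all tested genes 0.026, 0.010 and −0.021. In each class of length, and in each class of GC content, the genes beyond the border had a higher median than all tested genes. Length and GC content were cut separately, not jointly. The border was set from these same fold changes, so the higher medians are a description and support nothing by themselves. With offsets for length and GC content the median beyond the border was 0.12 and that below −0.039. With offsets from the effective length of each library 45 genes beyond the border rose and 2 fell, and below the border 6 rose and 6 fell in place of 13 and 33.

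Genes below the border were longer, lower in GC content and lower in level at the median than all tested genes, and those beyond it were closer to all tested genes in length and GC content. Protein-coding genes were 79.3% of the tested genes beyond the border, 79.1% below and 82.1% of all. The median length was 2304 bases beyond the border and 2608 bases below, and 2345 bases over all. The median wild-type TPM was 14.5, 12.5 and 16.4 in the same order, and the median transcript GC content 48.2%, 44.5% and 48.1%. Promoter windows were found for only 76.4%, 72.3% and 70.6% of the genes, so their base composition is not compared. The shares of windows with a motif match rest on the same windows and carry the same limit. The median coefficient of variation among wild-type libraries was 5.79%, 6.17% and 5.5%.

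Of all 309 tested genes beyond the border 28.2% rose and 1.62% fell in edgeR, with a median of 0.13. In the highest class of mean TPM there, which holds PKM, ETFA and COX5A, 59.3% rose. Below the border 5.22% rose and 13.3% fell, and the border was set from this same comparison. Of 10 tested genes of central metabolism beyond the border 5 rose (PKM, IDH2, FAH, IDH3A and MPI) and 0 fell in edgeR, with a median of 0.17. At an unadjusted p under 0.05, 0 of them were lower, and DESeq2 and limma-voom each called 5 higher and 0 lower. Of 4 such genes below the border 0 rose and 0 fell in edgeR, also at an unadjusted p under 0.05, by DESeq2 and by limma-voom. PKM (ENSG00000067225, chr15:72199029-72231822, minus strand) encodes the enzyme of the last step of glycolysis. It had 1282, 1227 and 1334 CPM in wild-type cells and 1715, 1673 and 1781 CPM in knockout cells. Every knockout library was above every wild-type library, and the log2 fold change was 0.43 ± 0.037 (SE, edgeR adjusted p = 4.31e-06). ETFA, a subunit of the electron transfer flavoprotein of fatty acid oxidation, had 120, 124 and 120 CPM in wild-type cells and 151, 147 and 152 CPM in knockout cells. IDH2, the mitochondrial NADP-dependent isocitrate dehydrogenase, went from 36.6 ± 2.36 to 50.1 ± 0.28 CPM (SD, n = 3). Of 11 tested mitochondrial genes beyond the border 7 rose and 0 fell at edgeR adjusted p under 0.05, with a median of 0.17, among them COX5A, a cytochrome oxidase subunit, and IDH3A, a subunit of the NAD-dependent enzyme (0.21 and 0.17). At an unadjusted p under 0.05, 0 of the 11 were lower. DESeq2 called 5 higher and 0 lower, and limma-voom 7 and 0. Below the border 0 of 5 mitochondrial genes rose, at an unadjusted p under 0.05, by DESeq2 and limma-voom too, and 1 fell. The call of COX5A ended with length and GC offsets (adjusted p = 0.152). IDH2 and IDH3A count in both the metabolism and the mitochondrial list.

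Ribosome and translation genes beyond the border had the highest median of the lists with more than 3 tested genes there. Of 9 tested genes 8 rose and 0 fell in edgeR (7 and 0 by DESeq2, 8 and 0 by limma-voom, and 0 lower at an unadjusted p under 0.05), with a median of 0.24, against 1 of 6 below the border with a median of −0.0046. RPL4, a protein of the large ribosomal subunit, had 1626, 1644 and 1666 CPM in wild-type cells and 1901, 1915 and 1932 CPM in knockout cells. RPLP1, a protein of the ribosomal stalk, had 564, 552 and 547 CPM in wild-type cells and 637, 647 and 681 CPM in knockout cells. In both genes the groups were apart, with log2 fold changes of 0.22 and 0.24. In the highest class of mean TPM, which holds RPL4 and RPLP1, 59.3% of the genes beyond the border rose. RPS27L, a ribosomal protein paralog induced by p53, and LARP6, which binds collagen mRNA, rose by 0.43 and 0.37, and LARP6 was not called with effective-length offsets (adjusted p = 0.0729). RSL24D1, a ribosome assembly factor, lies below the border and rose by 0.34 (edgeR adjusted p = 3.79e-05).

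Regulators of transcription and chromatin rose in part, as did the stretch as a whole. Of all tested genes beyond the border 28.2% rose and 1.62% fell, with a median of 0.13, and of the protein-coding ones 33.9% rose. Below the border 5.22% rose and 13.3% fell. Of the 23 tested genes of this list beyond the border 9 rose and 0 fell in edgeR (1 lower at an unadjusted p under 0.05), with a median of 0.14. DESeq2 called 6 higher and 0 lower there and limma-voom 8 and 0. Below the border 2 of 12 genes of the list rose and 1 fell in edgeR. ARNT2, a partner of bHLH-PAS transcription factors, and ANP32A, an acidic nuclear phosphoprotein, rose by 0.26 and 0.20. MORF4L1, a reader of methylated histones in acetyltransferase complexes, is counted with the repair genes and not in this list. It had 328, 329 and 326 CPM in wild-type cells and 387, 406 and 395 CPM in knockout cells. PSMA4, an alpha subunit of the proteasome core and a gene of none of the lists, rose by 0.23. Of 6 tested RNA processing genes beyond the border 3 rose (SNRPA1, LARP6 and SNUPN), and of 12 genes of matrix and cytoskeleton 2 rose (UACA and LOXL1). Of 3 genes of the antigen presentation list 1 rose, CTSH. DESeq2 called 3, 1 and 1 genes of these lists higher and limma-voom 3, 2 and 1. In edgeR 0 genes of these 3 lists fell there, and 0 were lower at an unadjusted p under 0.05, by DESeq2 or by limma-voom.

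Signalling and membrane traffic genes beyond the border had calls in both directions. Of all tested genes there 28.2% rose and 1.62% fell, and below the border 5.22% rose and 13.3% fell. Since the border was set from this same comparison, a contrast of its 2 sides is no result about these lists. RAB11A counts in both lists. Of 22 tested signalling genes beyond the border 5 rose and 1 fell, with a median of 0.083, and of 12 below it 0 rose and 1 (SPRED1, an inhibitor of the RAS pathway) fell. At an unadjusted p under 0.05, 0 of these 12 were higher, as with DESeq2 and limma-voom. MAP2K1, the kinase MEK1 of the ERK pathway, rose by 0.23 and CSK, the kinase that inhibits SRC family kinases, by 0.16. With effective-length offsets MAP2K1 was not called (adjusted p = 0.233), nor was CSK (0.622), which also turned in sign on log2(TPM + 1). The CSK call also ended without wild-type replicate 3 (0.0629), and that of SPRED1 without wild-type replicate 1 or 2 (0.0537 and 0.0686). Beyond the border DESeq2 and limma-voom each called 4 signalling genes higher and 1 lower. RAB11A, a GTPase of recycling endosomes, rose by 0.21. Of 18 traffic genes beyond the border 4 rose and 1 fell (3 and 1 by DESeq2, 4 and 1 by limma-voom), and of 14 below it 0 rose and 6 fell in edgeR (1 higher at an unadjusted p under 0.05, 0 higher by DESeq2 and limma-voom, which called 6 and 5 lower). CTSH, a lysosomal protease, rose by 0.29 (adjusted p = 0.0501 without wild-type replicate 1) and MYO5A, a myosin motor of vesicles below the border, fell by 0.36 on the log2 scale.

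Cell division genes were called on both sides of the border. Since the border was set from this same comparison, opposite directions on its 2 sides are no result about these genes. Beyond it 28.2% of the tested genes rose and 1.62% fell, and below it 5.22% rose and 13.3% fell. Of 4 division genes beyond the border 2 rose, and of 10 below it 0 rose and 4 fell in edgeR (0 higher at an unadjusted p under 0.05, by DESeq2 or by limma-voom). Beyond the border DESeq2 and limma-voom each called 1 of the 4 higher, and below it each called 4 lower. PRC1, a microtubule bundling protein of the spindle midzone, had 250, 249 and 265 CPM in wild-type cells and 310, 294 and 291 CPM in knockout cells. BUB1B, a kinase of the spindle checkpoint below the border, had 110, 114 and 117 CPM in wild-type cells and 103, 97.0 and 96.6 CPM in knockout cells. With effective-length offsets neither it nor the kinetochore scaffold gene KNL1 was called (adjusted p = 0.166 and 0.523). Of 9 repair and replication genes beyond the border 4 rose (MORF4L1, FANCI, TIPIN and BLM) and 1 fell, TICRR. BLM, a DNA helicase, and TIPIN, a protein of the replication fork, rose by 0.23 and 0.27, and BLM was not called with effective-length offsets (adjusted p = 0.0767). FANCI, a subunit of the Fanconi anaemia complex, rose by 0.16, but was not called with effective-length offsets (adjusted p = 0.886).

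The 5 genes that fell beyond the border had the opposite sign of most genes of the stretch. TICRR, which is needed to start DNA replication, had 115, 117 and 114 CPM in wild-type cells and 86.7, 89.2 and 87.4 CPM in knockout cells, a log2 fold change of −0.39 ± 0.036 (SE, edgeR adjusted p = 6.16e-06). HERC1, a very large ubiquitin ligase, had 98.6, 96.3 and 88.8 CPM in wild-type cells and 67.4, 65.9 and 73.9 CPM in knockout cells. VPS13C had 105, 106 and 93.2 CPM in wild-type cells and 81.1, 84.5 and 86.4 CPM in knockout cells. In these 3 genes the groups did not overlap. SMAD6, an inhibitor of BMP signalling, fell by 0.23, and DNM1P47, a pseudogene with close copies, had means of 0.985 and 0.442 CPM. HERC1, VPS13C and TICRR have mean lengths of 8137, 9758 and 5794 bases in the files, in the longest of the 3 classes. With effective-length offsets the calls of HERC1, VPS13C and SMAD6 ended (adjusted p = 0.0818, 0.0767 and 0.0758), and that of SMAD6 also without wild-type replicate 1 (0.102) or knockout replicate 1 or 2 (0.0965 and 0.0752).

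Among genes called higher with groups apart and at least 5 CPM in 1 group, the 5 largest rises beyond the border were in MESP1, CA12, VPS33B, LRRC49 and PEX11A. MESP1, a transcription factor of early mesoderm, had 4.46, 4.93 and 4.04 CPM in wild-type cells and 7.95, 4.94 and 8.86 CPM in knockout cells, so that 1 knockout library lay close to the wild type. CA12, a membrane-bound carbonic anhydrase, rose by 0.54 and VPS33B, a protein of vesicle fusion, by 0.51. LRRC49, a leucine-rich repeat protein, and PEX11A, a protein of peroxisome division, rose by 0.50 and 0.48. The edgeR call of MESP1 ended without either of wild-type replicates 1 and 3 (adjusted p = 0.0587 and 0.0713) or knockout replicates 1 and 3 (0.0811 and 0.0823), and that of VPS33B without wild-type replicate 1 (0.0516). Effective-length offsets ended the calls of MESP1, VPS33B, LRRC49 and PEX11A (0.138, 0.215, 0.060 and 0.123). At the far end of the chromosome, where the window median was near 0, SNRPA1, a protein of the U2 splicing particle, rose by 0.37.

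Below the border the larger changes went both ways. HERC2, a large ubiquitin ligase next to the imprinted region, had 202, 193 and 177 CPM in wild-type cells and 135, 144 and 144 CPM in knockout cells, a log2 fold change of −0.43. Copies of HERC2 on the same chromosome can share its reads. Of all tested genes below the border 5.22% rose and 13.3% fell. Of 8 tested genes of the imprinted region and its neighbours 0 rose and 2 fell, HERC2 and the actin regulator CYFIP1. At an unadjusted p under 0.05, 0 of the 8 were higher, and DESeq2 and limma-voom also called 0 higher. By DESeq2 1 of the 8 was lower and by limma-voom 2. The CYFIP1 call ended without any 1 library other than knockout replicate 3 (adjusted p from 0.087 to 0.131). It also ended with the replicate block (0.0644), DESeq2 (0.0645), no low-count filter (0.0884), effective-length offsets (0.470), length and GC offsets (0.0625) and on log2(TPM + 1) (0.161). ADAM10, a protease that sheds membrane proteins, fell by 0.36 and the matrix protein gene FBN1 by 0.33. MAP1A, a microtubule-associated protein, had 33.9, 31.6 and 29.2 CPM in wild-type cells and 41.4, 43.3 and 42.2 CPM in knockout cells. B2M, the light chain of MHC class I, rose by 0.17. HERC2 and ADAM10 were not called with effective-length offsets (edgeR adjusted p = 0.188 and 0.486), nor was B2M with length and GC offsets (0.850). B2M was not called with effective-length offsets either. HERC2, ADAM10 and B2M were not called on log2(TPM + 1). FBN1 was not called with length and GC offsets (adjusted p just above the threshold of 0.05) or on log2(TPM + 1) (0.0687).

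**Figure D4:**
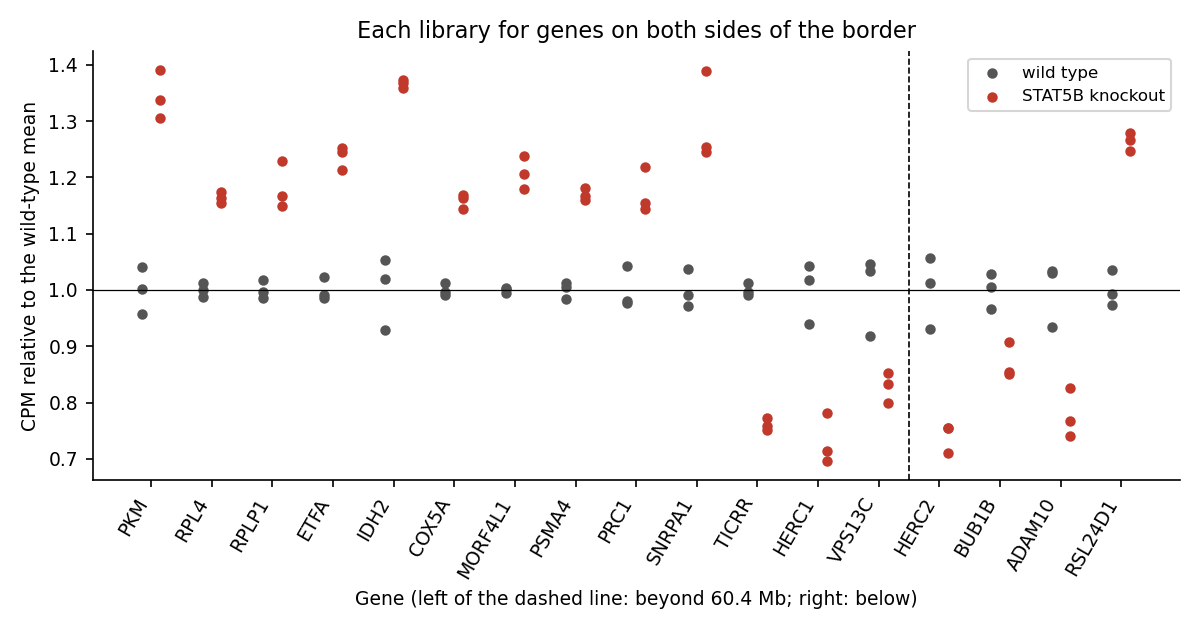
CPM of each library relative to the wild-type mean for genes beyond the border (left of the dashed line) and below it (right) (grey, wild type; red, knockout). The knockout points from PKM to SNRPA1 lie above all wild-type points, and those of TICRR, HERC1 and VPS13C lie below them.

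Beside other chromosomes the whole of chromosome 15 had the third highest median of 23, 0.044 over 561 tested genes, after chromosome 1 (0.15) and chromosome 7 (0.051). Chromosome 17 had the lowest, −0.066. The stretch beyond the border, at 0.13, was close to the median of chromosome 1, where 35.8% of 1574 genes rose, against 28.2% of the genes beyond the border. The difference was not tested. The stretch was cut by these same fold changes and chromosome 1 was taken whole, so the 2 are not like for like. Over the whole of chromosome 15 the share that rose was 17.8%.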

How the data were processed

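Each deposited file held 1 library with length, effective length, TPM and estimated count per gene, per the file headers. The submitters' processing notes name FastQC, fastp, DRAGEN, Picard and hg38, without their roles. The annotation was not given in the sources used here, nor was the read assignment. The estimated counts deposited by the authors were rounded to whole numbers. The TPM deposited by the authors were used for level classes and 1 alternative. Positions came from GENCODE release 29 for 58502 of 60609 identifiers, and 60295 matched a name table.

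Counts were tested with edgeR 4.0.16 in R 4.3.3 (filterByExpr, minimum count 10, minimum total 15, TMM, quasi-likelihood F test, Benjamini-Hochberg adjustment over 15958 genes, threshold 0.05). The method was checked on simulated data. Library totals of 17494958 to 21099813 counts limit precision at low levels. As alternatives served DESeq2 1.42.0, limma-voom (limma 3.58.1), RLE scaling, other count filters, offsets for effective length and for length and GC content, log2(TPM + 1), a replicate block, leaving out each library, protein-coding genes only, a minimum mean of 50 reads and borders at 58 and 63 Mb. Motif matches used the RefSeq promoter table. Genes were named by a rule: those next to the border, the 5 largest rises and falls per side (at least 5 CPM, groups apart), the most abundant and up to 3 per list with the smallest p. BTBD1, TRPM7, DNM1P47, CARMAL, ABHD2, LRRC57 and HAUS2 were named after their values were seen, as were list members counted in full. Not every gene so chosen is described, and some are not reported here. The genes and lists were chosen with earlier results of these data known.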

Additional observations from a re-analysis of the deposited data

How the results depend on the processing

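Over the alternatives run, the median beyond the border ranged from 0.049 to 0.14 and that below from −0.098 to −0.033. With DESeq2 7 genes below the border were higher. Effective-length offsets gave 45 higher and 2 lower genes beyond the border and 6 and 6 below, and length and GC offsets gave a median beyond of 0.12. On log2(TPM + 1) the counts were 22, 1, 4 and 8, with medians of 0.049 beyond and −0.098 below and a difference of 0.15, while the median of all tested genes was −0.059, and CSK and FANCI changed sign (−0.0056 and −0.062). Not counting CSK and FANCI, which changed sign, that scale ended 30 of the 46 calls among the genes checked one by one. Effective-length offsets ended 21 and length and GC offsets 8. Not every setting that ended a call is given beside its gene. A minimum of 50 reads gave a median beyond of 0.12. A border at 58 Mb gave 8 lower genes beyond and a median of 0.12. Runs of 50 genes had a highest median of 0.21 and a lowest of −0.082. In 4 classes of wild-type CPM the medians beyond were 0.14, 0.13, 0.11 and 0.13 from the lowest to the highest class, and those below −0.023, −0.014, −0.038 and −0.072, the last with the opposite sign of the value by TPM. The cause of these changes was not tested. Leaving out 1 library at a time gave 62 to 77 higher and 3 to 5 lower genes beyond the border (3 without wild-type replicate 1). Below it gave 9 to 14 higher and 20 to 28 lower genes, with 20 without wild-type replicate 1 or 2. The medians ranged from 0.11 to 0.13 beyond and −0.057 to −0.033 below, and their difference from 0.15 to 0.19. With the replicate number as a block the counts were 83, 6, 15 and 31 and the medians 0.13 and −0.039. Deviations of same-numbered libraries correlated at −0.066, 0.19 and 0.031 over 10257 genes, so the numbers were not taken to pair the samples. In the lowest TPM class the median standard error of 0.27 exceeded the median shift.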
